A study of Mus musculus with 12 samples.

Results

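Integrins are paired surface receptors, each made of 1 alpha and 1 beta subunit, that T cells use to adhere to vessel walls and matrix. The 8 integrin subunit genes described here were *Itgb1*, which encodes CD29, *Itga4*, *Itgb7*, *Itgal*, *Itgb2*, *Itgav*, *Itga6* and *Itgb3*. They were chosen as a named list, found by gene symbol in the deposited tables, and all 8 of 8 were present among 18992 gene identifiers. CD29 pairs with the product of *Itga4* to form VLA-4, which binds VCAM-1 and fibronectin on inflamed endothelium and in matrix. *Itgb7* competes with *Itgb1* for the same alpha subunit and gives a receptor of the gut ligand MAdCAM-1. *Itgal* and *Itgb2* form LFA-1, the ICAM receptor of T cell synapses. *Itgav* pairs with several beta subunits including that of *Itgb3*, and *Itga6* pairs with CD29 in a laminin receptor.

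The cells were PD-1+CD44+CD8+ T cells sorted from female NZB/W F1 mice, a cross that develops lupus nephritis with age, and were profiled by droplet single-cell RNA sequencing. The 3 groups were spleen of 12-week-old mice (12W spleen), spleen of 28-week-old mice (28W spleen) and kidney of 28-week-old mice (28W kidney). Kidney tissue was digested with collagenase while no such step was given for spleen. The labels list 4 samples per group, 12 in all, whose titles within a group differ only in a numbered suffix. Whether these are separate cell preparations cannot be told from the titles. The deposited tables pool them, so a group amounts to 1 unreplicated library. How many mice gave each library is not stated. The age label for 28W spleen says 12 weeks and contradicts the sample titles, and the titles were followed.

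The tables held 6894 cells of 12W spleen with 34742303 unique molecular identifiers (UMIs, counted transcripts), 6481 cells of 28W spleen with 32023473 UMIs, and 7135 cells of 28W kidney with 29937384 UMIs. The authors had divided the cells into 10, 11 and 12 clusters, 33 in all, numbered within each library. Levels are given as CPM, UMIs per 1000000 UMIs, with exact Poisson 95% intervals that cover counting error only. The T cell markers *Cd3d*, *Cd3e*, *Cd3g*, *Cd8a* and *Cd8b1* summed to between 4433 and 5715 CPM in the libraries. Markers of B cells, myeloid cells, kidney tubule, endothelium or red cells were raised in 8 clusters, 1 of 12W spleen, 2 of 28W spleen and 5 of 28W kidney, and the other 25 are called T cell clusters below. Of these, 4 were shallow, with UMIs per cell under 0.5 times the library mean, namely cluster 8 of 12W spleen, clusters 9 and 11 of 28W spleen and cluster 10 of 28W kidney. In clusters 8 of 12W spleen and 11 of 28W spleen, with 928 and 1288 UMIs per cell, 8.98% and 6.64% of UMIs were mitochondrial. Between 52 and 66 cell barcodes were shared by each pair of libraries.

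The upstream promoters of the subunits that carried the main contrasts are shown because *Itgb1* was higher and *Itgb7* lower in the kidney than in the 28W spleen, and both encode partners of the *Itga4* chain. Promoter sequences came from RefSeq (GRCm38.p6), where 4 of the 8 genes matched, and 3 are printed as the 250 bases before the RefSeq start, on the strand of the gene. The gene spans given below are from GENCODE, and the last bases of the *Itgb7* window lie inside its span. Capitals mark CACCC, a motif of Krüppel-like factors such as Klf2, and GGGCGG, the GC box, on either strand.
Itgb1 (chr8:128685404-128685653, plus strand): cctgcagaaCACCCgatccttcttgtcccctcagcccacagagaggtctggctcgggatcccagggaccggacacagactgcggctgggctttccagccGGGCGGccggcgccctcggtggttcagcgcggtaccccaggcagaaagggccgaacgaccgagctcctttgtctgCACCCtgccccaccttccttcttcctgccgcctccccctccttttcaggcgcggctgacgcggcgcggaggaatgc
Itga4 (chr2:79255176-79255425, plus strand): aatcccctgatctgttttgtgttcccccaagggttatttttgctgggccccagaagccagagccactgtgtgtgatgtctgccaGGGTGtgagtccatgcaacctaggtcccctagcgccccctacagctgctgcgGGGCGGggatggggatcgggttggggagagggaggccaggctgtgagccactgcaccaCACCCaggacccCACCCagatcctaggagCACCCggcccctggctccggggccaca
Itgb7 (chr15:102231936-102232185, minus strand): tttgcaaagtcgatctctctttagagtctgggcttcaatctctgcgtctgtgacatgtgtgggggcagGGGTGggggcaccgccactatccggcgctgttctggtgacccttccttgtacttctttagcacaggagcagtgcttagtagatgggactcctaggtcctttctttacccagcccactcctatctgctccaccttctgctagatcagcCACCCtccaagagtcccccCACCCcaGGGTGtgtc
The *Itgb1* window held 68.0% G and C with 21 CpG dinucleotides, against 64.0% and 6 for *Itga4* and 56.0% and 5 for *Itgb7*. CACCC occurred 2 times in the *Itgb1* window and 4 times in each of the other 2, and 52.0% of 32851 promoters of this length hold it. GGGCGG occurred 1 time each in *Itgb1* and *Itga4* and not in *Itgb7*, and 32.7% of promoters hold it. TGTGGT, a RUNX motif, occurred 1 time, in *Itga4*, where it overlapped a CACCC match, and 14.0% of promoters hold it. GGAAGT, an ETS motif, and TATAAA occurred in none of the 3 windows, and 19.7% and 12.4% of promoters hold them. These are matches of letters and do not show binding.

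Splenic *Itgb1* was higher at 28 weeks than at 12 weeks, and higher again in the kidney. *Itgb1* (ENSMUSG00000025809, GRCm38 chromosome 8, 128685654 to 128733200) measured 122 CPM (95% interval 118 to 126) in the spleen at 12W, 406 (399 to 413) in the spleen at 28W, and 555 (546 to 563) in the 28W kidney. Per cell these were 0.615, 2.004 and 2.33 UMIs. The 28W over 12W spleen fold was 3.32 (exact conditional 95% interval 3.21 to 3.44), and the kidney over 28W spleen fold was 1.37 (1.34 to 1.40). The 2 comparisons share the 28W spleen library. Of the 7 members with at least 10 CPM, 1 passed 2-fold by age, *Itgb1*, where 1.79% of 7434 such genes were higher past 2-fold and 0.901% lower. By organ 0 of 7 passed, where 5.31% of 7686 genes were higher and 1.34% lower. The study named *Itgb1* from these libraries as a signature gene of its CD29 cluster. Its direction by age is therefore not independent evidence. With 1 library per group, no test of either difference was possible.

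**Figure D1:**
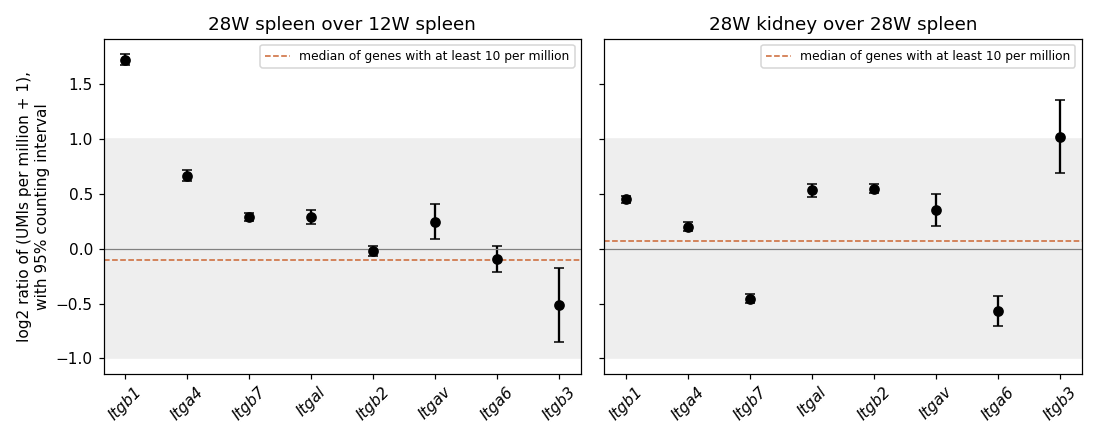
Log2 ratio of (CPM + 1) of the 8 subunits, 28W spleen over 12W spleen on the left and 28W kidney over 28W spleen on the right. Bars are 95% counting intervals, the grey band spans 2-fold in each direction, and the dashed line is the median of genes that reached 10 CPM in 1 of the libraries. *Itgb1* at 1.72 lies outside the band by age, and *Itgb3*, with 35 and 97 UMIs, sits at its edge by organ.

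The alpha subunit of VLA-4 moved less than its beta subunit. *Itga4* (ENSMUSG00000027009, chromosome 2, 79255426 to 79333123) measured 175 and 278 CPM in the spleens at 12W and 28W, and 320 in the kidney. At 28 weeks the spleen held 1.59-fold more (1.54 to 1.64). The log2 ratio by age, 0.67, was 0.35 with cluster means weighted by cells and 0.31 with an unweighted mean of clusters. It was 0.77 after scaling by the median gene ratio and 0.88 without cluster 2 of 12W spleen. The kidney held 1.15-fold more *Itga4* than the 28W spleen (1.12 to 1.18), a ratio that was -0.0057 on the log2 scale without cluster 6 of 28W spleen. *Itgb7* (ENSMUSG00000001281, chromosome 15, 102215995 to 102231944) measured 302, 369 and 269 CPM. It was 1.22-fold (1.19 to 1.25) higher at 28 weeks and, in contrast to *Itgb1*, lower in kidney than in 28W spleen at 0.729-fold (0.709 to 0.750). The *Itgb7* log2 ratio by age, 0.29, was 0.083 without cluster 7 of 12W spleen. It was 0.13 with cluster means weighted by cells, 0.15 with an unweighted mean of clusters and 0.39 after scaling by the median gene ratio.

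Both chains of LFA-1 were higher in the kidney, by nearly equal folds in the whole libraries. *Itgal* (ENSMUSG00000030830, chromosome 7, 127296260 to 127335138) measured 102, 125 and 181 CPM, with a fold of 1.23 by age and 1.45 (1.39 to 1.51) by organ. *Itgb2* (ENSMUSG00000000290, chromosome 10, 77530252 to 77565708) measured 258, 254 and 371 CPM, and was 1.46-fold (1.42 to 1.503) higher in kidney. By age the *Itgb2* fold was 0.986 (0.957 to 1.02), an interval that includes 1. In the T cell clusters alone, the kidney over 28W spleen log2 ratios were 0.69 for *Itgal* and 0.71 for *Itgb2*, against 0.53 and 0.54 in the whole libraries. That selection left out kidney cluster 11 and kept 28W spleen cluster 6, both led by cell cycle genes. With an unweighted mean of all clusters the ratios were 0.38 and 0.26, and with cluster means weighted by cells 0.57 and 0.40. They were 0.38 and 0.39 with a total free of receptor, immunoglobulin, mitochondrial and ribosomal genes.

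The laminin and vitronectin receptor chains were found at low levels. *Itgav* measured 16.2, 19.4 and 25.1 CPM in the libraries, in the same order. *Itga6* measured 33.1, 31.0 and 20.6 CPM, and was 0.665-fold (0.601 to 0.736) lower in kidney than in 28W spleen. *Itgb3* had 69, 35 and 97 UMIs in all, or 1.99, 1.09 and 3.24 CPM, and its 2.96-fold (1.995 to 4.497) organ difference rests on these counts. Over all 8 members the median log2 ratio was 0.27 by age, against -0.098 for genes with at least 10 CPM, and 0.40 by organ, against 0.073. Over the 7 members that reached 10 CPM, without *Itgb3*, the medians were 0.29 by age and 0.35 by organ.

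*Itgb1* was unevenly spread over the splenic clusters and evenly over those of the kidney. In 12W spleen it ranged from 50.2 CPM in cluster 9, through a median of 78.3, to 664 in the shallow cluster 8. Cluster 2 stood at 502 CPM (480 to 525), and the other 8 clusters lay at or below 80.3. Their neighbours in the order all had overlapping intervals. Cluster 2 of 12W spleen, led by *Ccl5*, *S100a6*, *Gzmk*, *S100a4* and *Itgb1* itself, held 45.9% of the *Itgb1* UMIs of the library and 11.2% of all its UMIs. Without that cluster, 12W spleen measured 74.4 CPM and the age fold was 5.45. Per cell, cluster 2 had 1.74 *Itgb1* UMIs and the shallow cluster 8 had 0.616, so the order of these 2 clusters differs between the scales.

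In 28W spleen *Itgb1* ranged from 124 CPM in cluster 3, through a median of 374, to 1506 in the shallow cluster 11. Cluster 5, which *Itgb1*, *Ctla4* and *Itga4* are among the leading genes of, measured 821 CPM (791 to 851), followed by cluster 4 (leading genes *Ifit3* and *Rsad2*, interferon-stimulated) at 660 and cluster 2 (*Ccl4*, *Ccl5*, *Gzmb*) at 603. These neighbours had separate intervals. The lowest, cluster 3, was led by *Sox4* and *Myb*, and cluster 6, led by cell cycle genes, was next at 166. All 11 clusters of 28W spleen exceeded the median cluster of 12W spleen, and 2 exceeded its highest.

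In 28W kidney *Itgb1* ranged from 254 CPM in cluster 12, through a median of 543, to 727 in cluster 3. The 3 lowest, clusters 12, 8 and 7, were clusters with raised myeloid, B cell and kidney tubule markers. The 7 T cell clusters of the kidney lay between 493 and 727 CPM, a 1.48-fold range, against 13.2-fold over 9 T cell clusters of 12W spleen and 12.2-fold over 9 of 28W spleen. Without the shallow clusters these spleen ranges were 10.0-fold and 6.62-fold, a setting chosen after the data were seen for the T cell clusters. Over the T cell clusters *Itgb1* correlated with log2 UMIs per cell at r = -0.81 (9 clusters of 12W spleen), -0.62 (9 of 28W spleen) and 0.12 (7 of kidney), and the part of depth in the cluster differences was not tested.

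**Figure D2:**
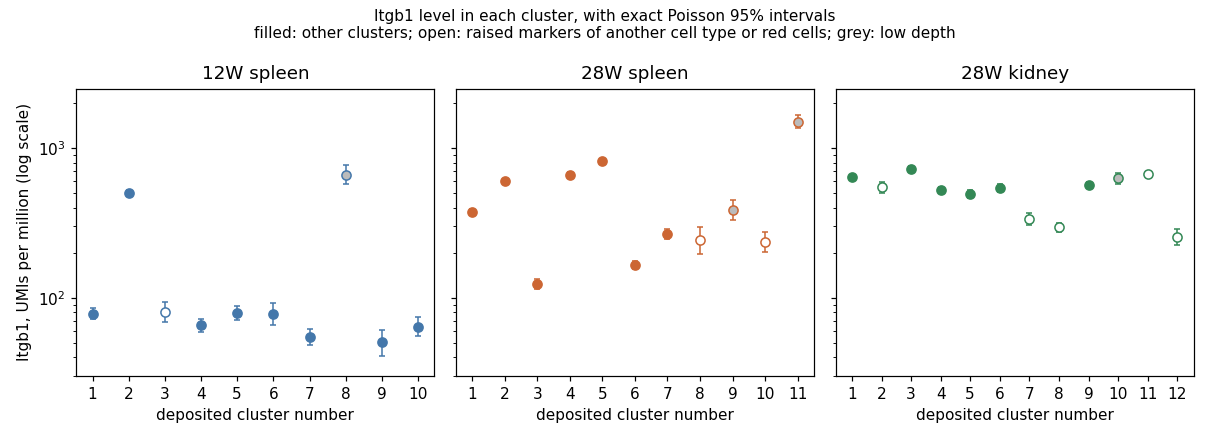
*Itgb1* level in CPM (log axis) in each of the 33 deposited clusters with exact Poisson 95% intervals, by library. Filled points are T cell clusters, open points have raised markers of another cell type or red cells, and grey points are T cell clusters of low depth. In 12W spleen clusters 2 and 8 stand at 502 and 664 CPM above 8 clusters at 50.2 to 80.3, and the kidney points lie between 254 and 727.

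Clusters of 2 libraries that shared at least 2 of their 6 leading genes were then compared, a pairing made after the data were seen. *Itgb1* was higher at 28 weeks in 5 of 6 such splenic pairs. In the clusters led by *Sox4* and *Myb*, it measured 78.3 CPM at 12 weeks and 124 at 28 weeks, 1.58-fold (1.40 to 1.79). In the cycling clusters it measured 64.1 and 166 CPM, 2.59-fold (2.22 to 3.03). In the clusters led by *Ccl5* and *Gzmk*, which were high at both ages, it measured 502 and 603 CPM, 1.20-fold (1.13 to 1.27). The shallow clusters 8 and 11 gave 2.27-fold and the haemoglobin-bearing clusters 3.02-fold. The exception was cluster 9 of 28W spleen, also led by *Ccl5* and *Gzmk*, at 387 CPM, or 0.770-fold of cluster 2 of 12W spleen.

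In the same pairs *Itga4* stayed close to 1-fold. It was 0.950-fold (0.880 to 1.02) in the *Sox4* and *Myb* clusters, 1.002-fold (0.876 to 1.15) in the cycling clusters and 0.955-fold (0.890 to 1.03) in the *Ccl5* and *Gzmk* clusters numbered 2, against 1.59-fold for the whole libraries. The shallow pair gave 0.942-fold and the haemoglobin-bearing pair 1.01-fold. Only cluster 9 of 28W spleen against cluster 2 of 12W spleen, at 0.580-fold (0.466 to 0.715), had an interval without 1 among the 6 pairs.

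Between the organs, the cycling clusters differed most in *Itgb1*. The kidney cycling cluster 11 measured 669 CPM against 166 in cluster 6 of 28W spleen, 4.04-fold (3.76 to 4.34), and *Itga4* was 2.98-fold (2.71 to 3.27) higher in the same pair. Red cell markers were raised in this kidney cluster, and their part was not tested. In the clusters led by *Gzmb* and *S100a4*, *Itgb1* measured 642 CPM in kidney and 603 in spleen, 1.07-fold (1.01 to 1.12). In the interferon-stimulated clusters it measured 540 CPM in kidney and 660 in spleen, 0.818-fold (0.760 to 0.881), while *Itgal* and *Itgb2* were 2.11-fold (1.85 to 2.41) and 2.19-fold (1.99 to 2.41) higher in kidney. The remaining pair, kidney cluster 12 and 28W spleen cluster 8, shared *Ngp*, *S100a8* and *S100a9* and held raised markers of other cell types in both, with *Itgb1* at 254 and 242 CPM, 1.05-fold (0.825 to 1.34). *Itgb7* was lower in kidney at 0.646-fold in the *Gzmb* and *S100a4* pair, 0.594-fold in the interferon-stimulated pair and 0.588-fold in the pair with other cell types' markers, and 1.14-fold higher in the cycling pair.

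The balance of the beta subunits that share the *Itga4* chain was measured as the *Itgb1* share of summed *Itgb1* and *Itgb7* UMIs. Within a cluster the share does not depend on scaling, while the share of a library depends on how its clusters are weighted. Only the change of the share between libraries or clusters is read, since the genes differ in length and capture. It was 28.8% (exact binomial 95% interval 28.1 to 29.5) for 12W spleen, 52.4% for 28W spleen and 67.4% for the kidney. In 12W spleen 7 of 9 T cell clusters lay between 15.5% and 39.4%, with cluster 2 at 53.3% (51.7 to 54.9) and cluster 7 at 67.0% (62.2 to 71.6). Cluster 7, led by *Xcl1*, *Ccl4* and *Tnfrsf9*, reached that share with low *Itgb1*, at 54.5 CPM, and with the lowest *Itgb7* of the 33 clusters, 26.9 CPM. Its *Itga4* was also the lowest, at 38.9 CPM, while its *Itgb2* measured 184 CPM.

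In 28W spleen the share ran from 26.6% (24.8 to 28.5) in the *Sox4* and *Myb* cluster 3 to 64.2% (62.8 to 65.6) in cluster 5. In 28W kidney all 12 clusters exceeded the median cluster of 28W spleen, 48.7%, and ranged from 59.8% in the B cell-marked cluster 8 to 74.2% in the cycling cluster 11. The 7 kidney T cell clusters spanned 61.1% to 71.6%, a range that 2 of 9 T cell clusters of 28W spleen (clusters 5 and 11) and 1 of 9 of 12W spleen (cluster 7) entered.

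**Figure D3:**
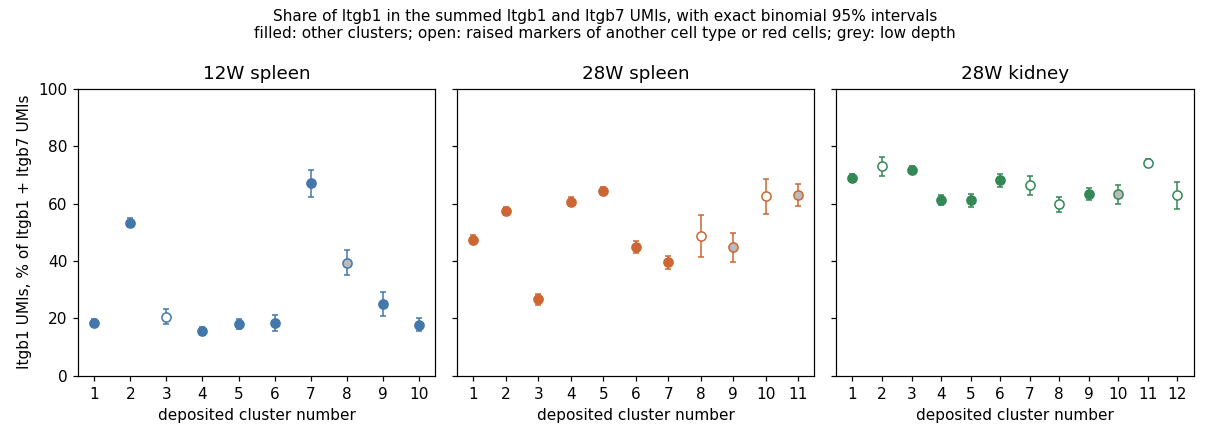
Share of *Itgb1* in summed *Itgb1* and *Itgb7* UMIs, in percent, for each cluster with exact binomial 95% intervals. Filled, open and grey points are as for the *Itgb1* level. In 12W spleen clusters 2 and 7 stand above the rest at 53.3% and 67.0%, and the 28W kidney clusters lie between 59.8% and 74.2%.

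*Itga4* and *Itgb7* also varied widely over the splenic clusters. *Itga4* ranged from 38.9 CPM in cluster 7 to 1460 in the shallow cluster 8 of 12W spleen, with a median of 129. In 28W spleen it ranged from 107 in the cycling cluster 6, through a median of 241, to 1376 in the shallow cluster 11, with cluster 5 next at 489. In 28W kidney it ranged from 133 in the tubule-marked cluster 7, through a median of 322, to 510 in cluster 3. *Itgb7* was more even than *Itga4* outside cluster 7 of 12W spleen, with medians of 348, 414 and 271 CPM. It still reached 1022 CPM in the shallow cluster 8 of 12W spleen and 881 in the shallow cluster 11 of 28W spleen. In cluster 9 of 12W spleen it was 152 CPM. No kidney cluster reached the median *Itgb7* of the 28W spleen clusters, and its highest there was 365 in cluster 10.

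The spread of the LFA-1 chains over clusters depended on the library. *Itgal* ranged from 63.8 to 397 CPM over the 12W spleen clusters, 41.9 to 469 over those of 28W spleen and 84.9 to 382 over the kidney clusters. *Itgb2* ranged from 184 to 565, 134 to 672 and 162 to 540 CPM. Over the T cell clusters of the kidney the highest *Itgal* was 2.95 times the lowest and the highest *Itgb2* 2.17 times, against 1.98 for *Itga4* and 1.44 for *Itgb7*. In 12W spleen the order was the other way, with 6.22 and 3.07 times for *Itgal* and *Itgb2* against 37.5 and 38.0 for *Itga4* and *Itgb7*. The kidney value for *Itgal* rests on the shallow cluster 10, and the 12W spleen values on the shallow cluster 8. Leaving out shallow clusters was chosen after the data were seen. The kidney ranges were then 2.098 for *Itgal* and 2.17 for *Itgb2*, against 1.98 for *Itga4* and 1.301 for *Itgb7*. In 12W spleen those of *Itga4* and *Itgb7* were then 9.53 and 16.4, still above those of *Itgal* and *Itgb2*. The lowest *Itgal* and *Itgb2* of 28W spleen were in cluster 10, where B cell and myeloid markers were raised, and the lowest of the kidney were in the B cell-marked cluster 8. Of the 7 kidney T cell clusters, 0 exceeded the highest of 9 in 28W spleen for *Itgb2* (672 CPM) or *Itgal* (469), both in the shallow cluster 11. Without the shallow clusters, 4 of 6 exceeded every one of 7 for *Itgb2*, and 3 of 6 for *Itgal*. *Itgav* reached 140 and 97.5 CPM in the shallow clusters 8 of 12W spleen and 11 of 28W spleen, with medians of 15.0 and 14.2 CPM over the clusters of these libraries. *Itga6* was highest in the same 2 clusters at 214 and 105 CPM. The other shallow cluster of 28W spleen, cluster 9, had the lowest *Itgav* of that library, 6.87 CPM from 3 UMIs, and *Itga6* at 22.9 CPM. *Itgb3* was at 0 UMIs in 3 clusters of 28W spleen, and the *Itgb3* intervals of neighbouring clusters overlapped throughout.

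**Figure D4:**
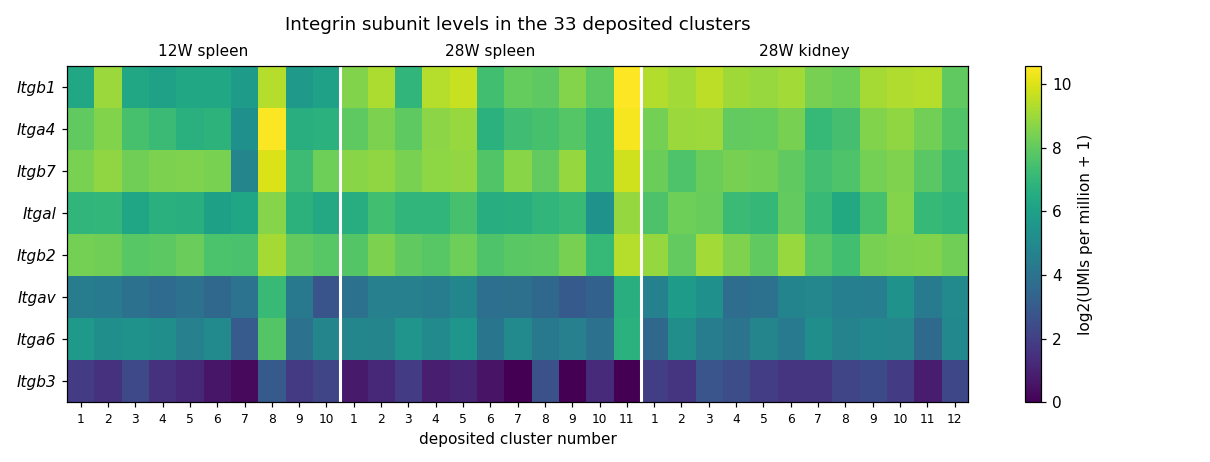
Heat map of log2(CPM + 1) of the 8 subunits (rows) in the 33 clusters (columns, by library), to be read along a row, since levels are not corrected for gene length. The shallow clusters 8 of 12W spleen and 11 of 28W spleen are the brightest 2 for *Itga4*, *Itgb7*, *Itgal*, *Itgb2*, *Itgav* and *Itga6*, and cluster 7 of 12W spleen is dark for *Itga4* and *Itgb7*.

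Over the 25 T cell clusters most of the subunits varied together, partners and others alike, and several pairs did so less without the shallow clusters. After centring each gene on its library mean, *Itgal* and *Itgb2* correlated at r = 0.89 and *Itgb1* and *Itga4* at r = 0.87. Subunits that do not pair gave values as high, with 0.89 for *Itgal* and *Itgav*, 0.88 for *Itga4* and *Itga6*, and 0.86 for *Itga4* and *Itgal*, and *Itga4* gave 0.91 with the nuclear RNA *Malat1*. Without the shallow clusters (21 clusters, chosen after the data were seen) the partner values were 0.90 and 0.75, and the others 0.80, 0.72, 0.71 and 0.82 in the order above. *Itga4* and *Itgb7* gave 0.79 and 0.71. Other values fell further without the shallow clusters. They went from 0.70 to 0.12 for *Itgav* and *Itga6* and from 0.73 to 0.30 for *Itgal* and *Itga6*. For the partners *Itgb1* and *Itga6* they were 0.64 and 0.30. These are descriptions over clusters, which share library, depth and preparation.

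**Figure D5:**
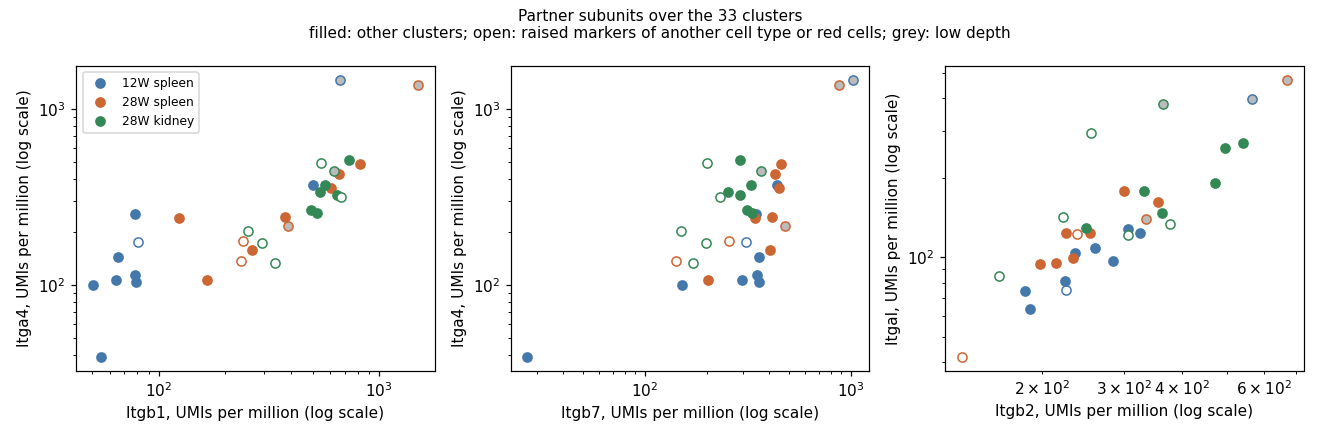
Levels in CPM (log axes) of *Itga4* against *Itgb1*, *Itga4* against *Itgb7* and *Itgal* against *Itgb2* in the 33 clusters, coloured by library, with open and grey points as before. The pairs *Itgb1* with *Itga4* and *Itgal* with *Itgb2* had r = 0.87 and 0.89 over the 25 T cell clusters, and the grey points of clusters 8 of 12W spleen and 11 of 28W spleen lie at or toward the upper right, while that of cluster 9 of 28W spleen lies among the other points.

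Among 2720 genes with a mean of at least 50 CPM, those most like *Itgb1* over the T cell clusters were *Cxcr3* (r = 0.92), the receptor of the interferon-induced chemokines, *Cd44* (0.89), the hyaluronan receptor used in the sort, and *Rgs1* (0.89), a regulator of chemokine receptor signalling. The genes least like it were *0610012G03Rik* (-0.80), *Yeats4* (-0.80) and *Rpl41* (-0.79). *Cxcr3* stayed first without the shallow clusters (0.94). *Itga4* was most like *Ppp1r12a* (0.97), *Slc9a9* (0.97) and *Dock2* (0.96), a Rac activator of lymphocyte migration. *Itgb7* was most like *4930523C07Rik* (0.96), *S1pr4* (0.95) and *Jakmip1* (0.95), and *S1pr1*, the egress receptor, gave 0.94.

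*Itgal* was most like *Fyn* (0.96), *Ikzf3* (0.96) and *Trip12* (0.96). *Itgb2* was most like *Lax1* (0.93), *Supt20* (0.91) and *Ptbp3* (0.91). *Itgav* was most like *Zfc3h1* (0.96), *Slc6a6* (0.96) and *Gpatch8* (0.95), and *Itga6* like *Pde4b* (0.98), *A430078G23Rik* (0.97) and *Stim1* (0.97). *Itgb3*, at under 4 CPM in each library, was most like *Yy1* (0.72), *Oxa1l* (0.66) and *Hadhb* (0.64), and no weight is given to correlations at this depth. Most of these names changed with the clusters or the correlation used.

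Of the genes used to name CD29 cells or often seen with them, *Itgb1* followed *Ahnak* (r = 0.86) and *Gzmk* (0.72) over the T cell clusters more than *Il7r* (0.60) or *Klf2* (0.22). Others lay near 0, with -0.11 for *Lgals1* and *S100a10*, -0.12 for *Anxa2*, -0.024 for *Crip1* and 0.037 for *Vim*. Without the shallow clusters (chosen after the data were seen) *S100a6* gave 0.86, *Ccl5* 0.82, *Gzmk* 0.79, and *S100a4* and *Ahnak* 0.78 each. Those near 0 then gave between 0.13 (*Anxa2*) and 0.52 (*Crip1*). *Ahnak* also followed *Itga4* (0.94) and *Itgb7* (0.85) over the T cell clusters. Of the 17 listed genes 15 reached 10 CPM by age, and 5 were higher past 2-fold at 28 weeks in the spleen and 0 lower, beside 1.79% and 0.901% of all genes. The 5 were *S100a4* (26.4 to 105 CPM), *S100a6* (122 to 493), *Lgals3* (12.2 to 37.4), *Ccl5* (1327 to 3990) and *Gzmk* (25.1 to 138). By organ 16 reached 10 CPM, 8 were higher in kidney and 2 lower, beside 5.31% and 1.34% of all genes. The lower were *Klf2* (1133 to 323 CPM) and *Il7r* (348 to 161). The study named *Itgb1*, *Il7r*, *Klf2*, *Ccl5*, *Nkg7* and *Gzmk* from these libraries, so their direction is not independent evidence. The other listed genes were chosen with earlier results of these data known, so theirs is not independent either.

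Among 19 other integrin subunits, 1 reached 10 CPM in the spleen libraries and 3 in 28W spleen or kidney. *Itga1*, the collagen-binding partner of CD29 found on tissue-resident T cells, had 6 and 12 UMIs in the spleens at 12W and 28W and 304 in the kidney, 27.1-fold (15.3 to 53.0) higher in kidney than in 28W spleen. Its highest level was 39.8 CPM in the tubule-marked cluster 7, and the kidney T cell clusters held 9.77 CPM, between 4.17 and 17.5. *Itgax*, which encodes CD11c, measured 3.56 CPM in 28W spleen and 14.0 in kidney, with 44.3 in the myeloid-marked cluster 12 and up to 24.7 in the T cell clusters. *Itgae*, which encodes CD103, an alpha chain that pairs with the *Itgb7* product, was lower in kidney. It measured 5.68 CPM there against 13.5 in 28W spleen and 21.2 in 12W spleen.

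Listed genes that regulate integrin activation, in either direction, or act at focal adhesions were past 2-fold about as rarely as genes in general. Of 34 listed, 28 reached 10 CPM in each comparison, and 0 passed 2-fold by age, against 1.79% of all such genes higher and 0.901% lower. By organ 0 were higher and 1 lower, against 5.31% and 1.34%. The latter was *Rasgrp2*, the exchange factor that activates Rap1 upstream of integrins, at 156 CPM in 28W spleen and 62.1 in 28W kidney. Within 2-fold, *Zyx* (zyxin, of focal adhesions) was 1.56-fold and *Rap1b* (a GTPase of integrin activation) 1.45-fold higher in kidney than in 28W spleen, and *Rasgrp1* was at 0.620-fold in 28W against 12W spleen. Talin (*Tln1*) measured 165, 177 and 185 CPM and kindlin-3 (*Fermt3*) 125, 129 and 142 CPM in the 3 libraries. Of 17 ligands and co-receptors, 10 reached 10 CPM by age and 0 passed 2-fold, and by organ 11 did and 2 passed, against the same shares of all genes. *Icam2* was lower in kidney (35.5 to 14.9 CPM), while *Cd81* was higher (14.7 to 52.2 CPM) in the whole library and lower in the T cell clusters (7.56 to 3.22 CPM).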

How the data were processed

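For each of the 3 libraries the authors deposited a table of mean UMI counts per gene and cluster (UMIs of a cluster divided by the summed size factors of its cells), beside log2 fold changes and adjusted p-values of clusters, which were not used. Processing notes list Cell Ranger 2.1.1 and R 3.6.1, with GRCm38. The methods name the Cell Ranger vdj pipeline at another version. The annotation release is not given in the sources used here. Dividing each deposited column by its smallest value gave whole UMIs for 100% of values, within 0.001. Depth per library is given in the report. The UMIs were summed per library or cluster and expressed as CPM, per 1000000 UMIs.

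Members, gene lists and cell type markers were chosen with earlier results of these data known. Genes were named by a written rule: all 8 members, the 3 most like each member, the 3 least like *Itgb1*, and list genes past 2-fold or above 10 CPM. A cluster had raised markers where a list summed to at least 200 CPM and 5 times the median cluster of its library, and was shallow where its UMIs per cell were under 0.5 times the library mean. Ratios were log2 of CPM with a pseudocount of 1. Likeness was Pearson's r of log2(CPM + 1) centred per library. Folds carry exact conditional binomial 95% intervals. Doublets could not be called from cluster sums. Code was tested on simulated data. Python 3.11.15, numpy 2.4.6, pandas 2.3.3 and SciPy 1.17.1 were used, with GENCODE M21 coordinates.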

Additional observations from a re-analysis of the deposited data

How the results depend on the processing

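No paired analysis was possible because the tables pool the 4 samples of a group, and leaving out each labelled sample was not run for the same reason. With 1 library per group there was no test, so the limits are counting error, unmeasured differences between mice and libraries, tissue digestion of the kidney, and clusters made within each library. Itgb3, at 35 to 97 UMIs, is limited by depth. The cause of the shifts given here was not tested.

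The log2 ratio of *Itgb1* by age, 1.72, was 1.83 after scaling by the median gene ratio, 1.65 with a pseudocount of 10, 1.43 with cluster means weighted by cells, 1.51 with an unweighted mean of clusters and 2.43 without cluster 2 of 12W spleen, the cluster that moved it most. By organ, 0.45, it was 0.36 by the median gene ratio, 0.29 with a total free of receptor, immunoglobulin, mitochondrial and ribosomal genes, 0.24 weighted by cells, 0.082 unweighted, 0.57 without clusters of other cell types, 0.55 also without red cell clusters and 0.25 without cluster 6 of 28W spleen. These scalings moved the median gene by 0.10 by age (median gene ratio) and by -0.16 by organ (total without those genes).

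The median member ratio by age, 0.27, was 0.37 by the median gene ratio, 0.052 weighted by cells, 0.092 unweighted and 0.16 without cluster 7 of 12W spleen. By organ, 0.40, it was 0.31 by the median gene ratio, 0.25 with the reduced total, 0.25 with a pseudocount of 10, 0.16 unweighted and 0.25 without cluster 6 of 28W spleen. Of all 8 members, 1 passed 2-fold by age, and 2 (*Itgb1* and *Itga4*) passed 1.5-fold, where 3.73% of genes with at least 10 CPM were higher past 1.5-fold and 3.04% lower. *Itga4* stayed under 1.5-fold by age when weighted by cells and when unweighted, at log2 ratios of 0.35 and 0.31. By organ 1 passed 2-fold, *Itgb3*, and 0 did by the median gene ratio, with a pseudocount of 10, weighted by cells, unweighted, or without cluster 7 of 28W spleen.

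The *Itgb1* share was 31.8% in 12W spleen and 53.5% in 28W spleen when weighted by cells, and 66.4% in 28W kidney without clusters of other cell types and red cells. The *Itgb1* range was 6.62-fold in 28W spleen without clusters of low depth, whether or not those of other cell types and red cells were kept, a joint setting chosen after the data were seen. In 28W kidney it was 2.86-fold over all clusters and also when only those of low depth were left out. The gene most like a member was unchanged for 3 of 8 members by Spearman correlation, 2 over all clusters, 4 without centring, 5 with a minimum of 20 CPM and 3 without shallow clusters, the latter chosen after the data were seen.

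For the 7 other members, the sign of the ratio matched in 63 of 70 values by age and 68 of 70 by organ. The exceptions were *Itgb2*, *Itgav* and *Itga6* by age and *Itga4* by organ.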
